A study of Drosophila melanogaster with 21 samples.

Results

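The Drosophila melanogaster genes described here are egr, Nepl4, Orct and wdp, 4 of the 13955 genes in the count tables of brain and ovary. They were chosen because their counts were lower than wild type in both CG11247 mutants of both tissues, so their brain and ovary changes against wild type are given as a description with no test. The wild-type libraries are one side of each comparison behind the choice, so differences between the wild-type tissues are also described without a test. The response in S2 cells was not used in the choice and is tested. Nepl4 is listed under its older name CG9505 in the tissue tables and was matched by gene identifier.

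The gene egr (eiger) encodes the fly ligand of the tumour necrosis factor family, which signals through the receptors Grindelwald and Wengen to the Jun kinase cascade. Nepl4 encodes a neprilysin-like protein of the M13 family of zinc metallopeptidases, which cleave peptides at the cell surface or outside the cell. Orct encodes a membrane transporter of the organic cation (SLC22) type. The gene wdp (windpipe) encodes a transmembrane protein with leucine-rich repeats that carries chondroitin sulfate and restrains JAK-STAT signalling by promoting turnover of the receptor Domeless.

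CG11247 encodes Saft, a zinc-finger protein, and the series compares tissue or cells with and without intact Saft. Brains (2 libraries per genotype, 40 brains each) and ovaries (3 libraries per genotype, 5 ovary pairs each) came from mated females 3 to 4 days old. The wild-type flies were white, and both frame-shift alleles were made by CRISPR-Cas9 in isogenised white flies. Controls and mutants thus share the white genotype, which by itself does not show that they come from the same isogenised stock. The mutant stocks are labelled w;;CG11247[indel1]/TM3,Sb and w;;CG11247[indel2]/TM3,Sb, and the sources used here do not say whether the dissected females were homozygous. S2 cells are a cultured line of embryonic, hemocyte-like origin, and the libraries came from 1 clone (9C) that expresses OsTir1 and carries Saft_FLAG-AID on every copy, a tag through which auxin triggers degradation of the protein. These cells received 500 µM auxin for 24 h or for 48 h, or solvent only (2 libraries each). Separate cultures or fly crosses for the libraries of a group are not named in the labels, so p-values here cover library-to-library spread, which may be technical.

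The alleles are shown because they define the mutant groups whose values chose the 4 genes; the capitals mark the 6 bases on each side of the deleted position in each allele of CG11247 (chromosome arm 3L).
Mutant 1, 1 base deleted in exon 1: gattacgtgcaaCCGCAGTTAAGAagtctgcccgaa
Mutant 2, 2 bases deleted in exon 2: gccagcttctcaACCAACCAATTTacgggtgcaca

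Total counts ranged from 39.0 M to 45.6 M (M, mega) in brain, 14.1 M to 21.5 M in ovary and 6.4 M to 9.1 M in S2 libraries. CPM stands for a gene's counts per 1 M counts of tested genes, with library totals scaled (TMM) within S2 cells, brain or ovary. CG11247 RNA averaged 87.8 ± 2.68 CPM in wild-type brain, 65.9 ± 0.713 in mutant 1 and 107 ± 4.5 in mutant 2 (SD, n = 2). In ovary it averaged 62.8 ± 4.08, 30.1 ± 0.733 and 72.6 ± 2.27 (SD, n = 3). A small deletion need not lower RNA, and auxin acts on the protein, so RNA level does not check the loss of Saft. Summed neuron markers reached 13100 to 13400 CPM in wild-type brain against 52.5 to 63.2 in wild-type ovary, and summed germline markers 2250 to 2460 CPM in wild-type ovary against 5.12 to 5.17 in wild-type brain. In the ovary, 1 library of each genotype (wild type 2, mutant 1 library 1, mutant 2 library 3) stood apart from the others on the second principal component, and ovary values are given also without them.

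Only 5 genes passed the threshold of lower expression (edgeR, adjusted p under 0.05) in all 4 tissue comparisons, which is 0.0631% of the 7919 genes tested in both tissues. They are the 4 genes and LanB2, which encodes the laminin gamma chain. These 5 were 15.6% of the 32 genes lower in both brain mutants that could be tested in ovary, and 0.992% of the 504 genes lower in both ovary mutants that could be tested in brain. The genes nearest the threshold are given without a test. Just inside, the largest of the 4 adjusted p-values was 0.0415 for egr and 0.0290 for LanB2. Just outside, it was 0.0574 for LanA, 0.0612 for CG30456, 0.0646 for LanB1 and 0.0713 for Ptp52F. LanA and LanB1 encode the laminin alpha and beta chains.

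In brain, egr reached 35.6 and 37.1 CPM in the wild-type libraries, 28.1 and 30.0 in mutant 1, and 28.3 and 30.4 in mutant 2. Both mutants lay close together and under wild type. The log2 difference from wild type was -0.33 ± 0.07 (SE) in mutant 1 and -0.31 ± 0.06 in mutant 2, or 20.3% and 19.3% lower. In ovary, egr reached 12.3, 13.5 and 14.1 CPM in wild type, 8.60, 8.20 and 7.89 in mutant 1, and 8.41, 9.19 and 8.52 in mutant 2. The log2 difference was -0.69 ± 0.10 and -0.61 ± 0.10, or 38.2% and 34.6% lower. Without the 3 ovary libraries that stood apart these were -0.72 and -0.59.

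Nepl4 had the fewest brain reads of the 4 genes and the largest fitted brain difference. Its brain counts were 131 and 141 in wild type, 56 and 29 in mutant 1, and 24 and 28 in mutant 2, which is 3.04 and 3.21 CPM in wild type against 0.535 to 1.30 CPM in the 4 mutant libraries. The log2 difference was -1.64 ± 0.29 in mutant 1 and -2.33 ± 0.30 in mutant 2, or 67.8% and 80.1% lower. In ovary, Nepl4 reached 4.48, 6.72 and 4.72 CPM in wild type, 1.53, 1.31 and 1.05 in mutant 1, and 2.52, 1.83 and 1.42 in mutant 2. The log2 difference was -2.03 ± 0.28 and -1.45 ± 0.27, and -1.96 and -1.08 without the libraries that stood apart. The order of the mutants was opposite in the tissues: mutant 2 minus mutant 1 came to -0.69 ± 0.32 in brain and 0.58 ± 0.29 in ovary on the log2 scale, derived from the comparisons that chose the gene and so not tested.

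Orct reached 55.8 and 53.9 CPM in wild-type brain, 43.4 and 42.4 in mutant 1, and 42.2 and 43.4 in mutant 2. The mutant libraries were almost level with each other, and the log2 difference was -0.35 ± 0.05 and -0.36 ± 0.05. In ovary, Orct reached 6.89, 9.08 and 6.02 CPM in wild type, 2.81, 2.51 and 1.97 in mutant 1, and 2.22, 2.03 and 2.66 in mutant 2. The log2 difference there was -1.59 ± 0.22 and -1.67 ± 0.22, or 66.8% and 68.6% lower, and -1.53 and -1.60 without the libraries that stood apart. Orct had the widest gap between tissues: the mean change of both mutants in brain minus that in ovary was 1.25 ± 0.16, against 0.31 ± 0.09 for egr, -0.26 ± 0.37 for Nepl4 and -0.09 ± 0.08 for wdp (log2, not tested).

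The gene wdp reached 64.1 and 60.0 CPM in wild-type brain, 47.9 and 45.1 in mutant 1, and 48.2 and 43.9 in mutant 2. Its log2 difference was -0.41 ± 0.07 and -0.43 ± 0.07, or 24.9% and 25.7% lower. In ovary, where it was the most abundant of the 4 by CPM, it reached 90.7, 88.5 and 82.6 CPM in wild type, 63.7, 63.0 and 66.4 in mutant 1, and 72.2, 74.1 and 69.5 in mutant 2. The log2 difference was -0.44 ± 0.06 in mutant 1 and -0.28 ± 0.05 in mutant 2. Every mutant 2 ovary library lay between the mutant 1 libraries and the wild-type libraries. Without the libraries that stood apart the mutant 2 value was -0.24, with an adjusted p of 0.0529 in edgeR, so wdp then missed the threshold of 0.05 there.

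For all 4 genes, every mutant library lay under every wild-type library in both tissues. Of all genes tested, 10.9% showed that order in brain and 14.7% in ovary; since the genes were chosen on these values, nothing is read from the count. Called lower were 0.759% of genes in brain mutant 1, 0.729% in brain mutant 2 and 0.516% in both, and 11.2%, 7.35% and 6.35% in ovary. In brain, where groups hold 2 libraries, leaving out 1 library left every difference negative. Depending on the library, it took the adjusted p-value of each of the 4 genes above 0.05 in mutant 1 (edgeR). In mutant 2 it did so for egr, Orct and wdp but not for Nepl4. Such fits can leave 1 library in a group, so their adjusted p-values are not printed. These are bulk tissues, in which fewer cells of a type and less RNA per cell cannot be told apart.

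**Figure D1:**
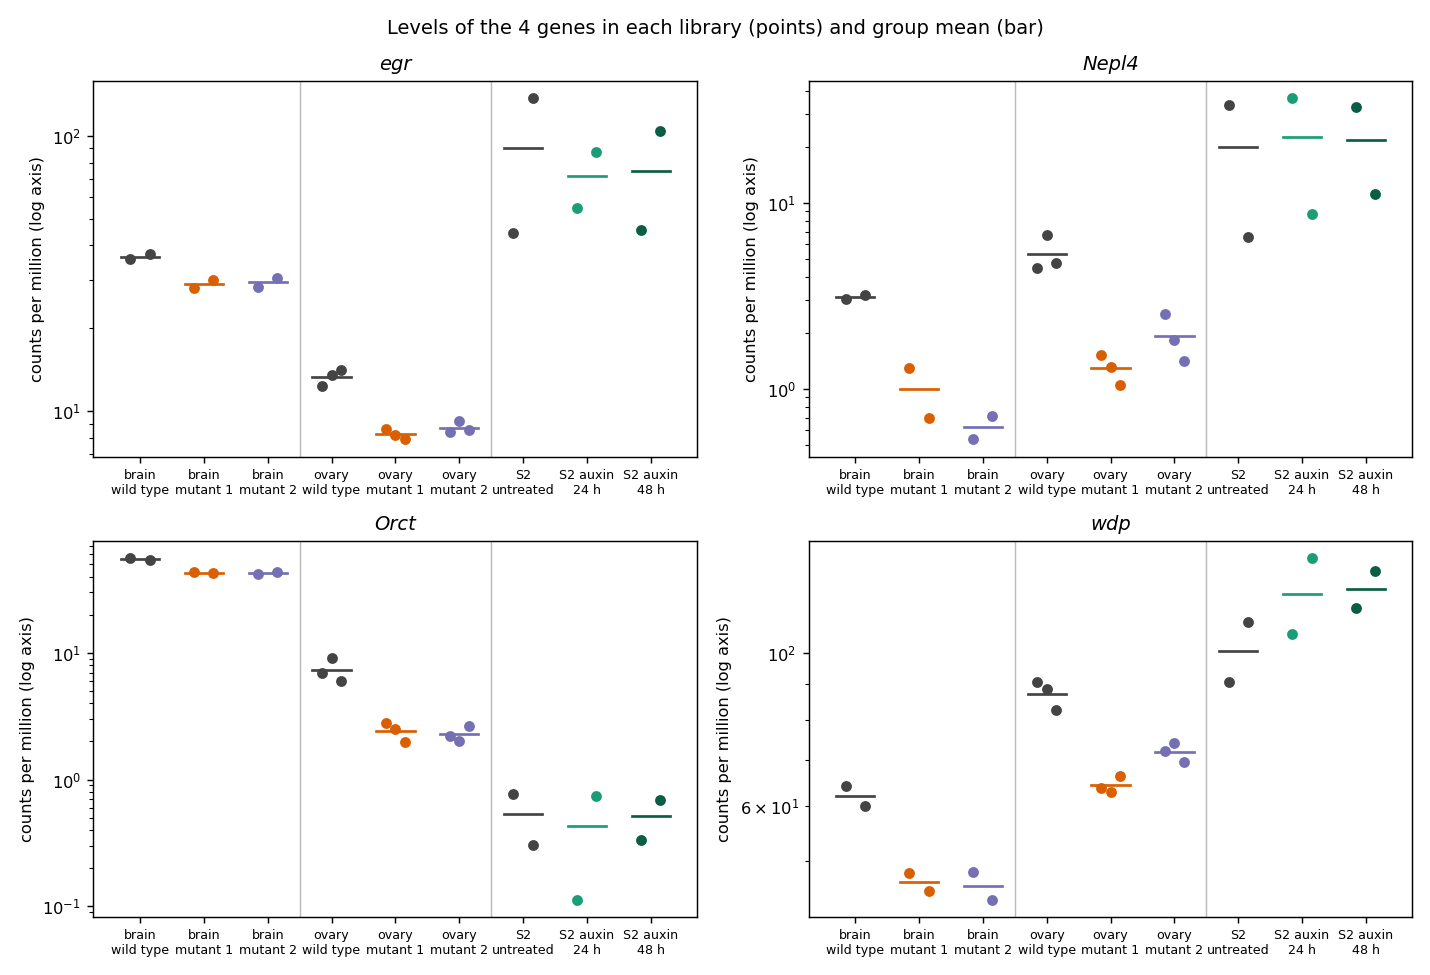
CPM (log axis) of egr, Nepl4, Orct and wdp in each library, with points for libraries and horizontal lines for group means, in 9 groups: wild type, mutant 1 and mutant 2 of brain and ovary, and S2 cells untreated or after 24 h or 48 h of auxin. In brain and ovary every mutant point lies under the wild-type points, while S2 groups overlap for egr, Nepl4 and Orct, and for wdp at 24 h; levels are not comparable between S2 cells and tissues, which were prepared with different kits.

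Orct lies next to Orct2, a second transporter gene of the same type on chromosome arm 3R, and the authors' estimated counts divide reads between them. In each of the 15 tissue libraries the Orct and Orct2 values were fractional while their sum was a whole number within 0.005. Orct held 71.0% to 74.4% of the summed reads in brain, and mutant 2 spanned nearly that whole range. It held 22.8%, 26.8% and 28.5% in wild-type ovary libraries against 11.6% to 18.7% in the 6 mutant ones. The sum itself was 25.8, 32.0 and 26.4 CPM in wild-type ovary and 15.2 to 18.4 CPM in mutant ovary, and 72.6 and 75.7 CPM in wild-type brain against 58.3 to 60.8 CPM in mutant brain. Fitted as 1 gene, an alternative chosen after the data were seen, the pair differed from wild type by -0.30 ± 0.05 and -0.34 ± 0.05 in brain and by -0.84 ± 0.10 and -0.69 ± 0.10 in ovary (log2). The sum was lower in every mutant library of both tissues, but its ovary difference was smaller than that of Orct alone, and the mean brain change minus the ovary change was 0.42 for the pair against 1.25 for Orct.

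Orct2 alone was lower in both ovary mutants, with log2 changes of -0.65 ± 0.10 (adjusted p = 0.00132, edgeR) and -0.46 ± 0.10 (adjusted p = 0.0120); the second adjusted p was 0.100 without the libraries that stood apart. In brain its values of -0.16 ± 0.08 and -0.30 ± 0.08 did not pass (adjusted p = 0.648 and 0.128, edgeR). How the split of reads follows the true level of each gene was not tested.

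**Figure D2:**
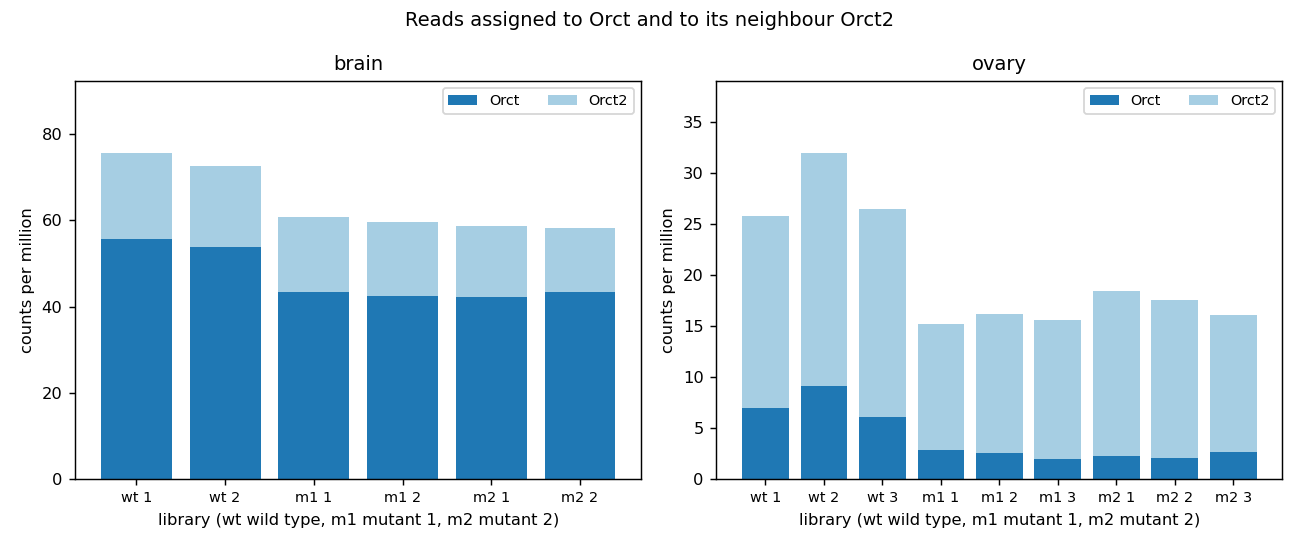
CPM assigned to Orct (dark) and Orct2 (light), stacked, for each brain library (left) and ovary library (right), with wild type (wt), mutant 1 (m1) and mutant 2 (m2) numbered by replicate. The stacked total is lower in every mutant library, and the dark share is 71.0% to 74.4% in brain but 11.6% to 28.5% in ovary.

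In wild-type tissue the genes stood in different orders. Per kilobase of the longest annotated transcript, brain levels were 21.7 ± 0.513 CPM for Orct, 20.1 ± 0.941 for wdp, 16.8 ± 0.474 for egr and 1.35 ± 0.0523 for Nepl4 (SD, n = 2). No 2 of these genes overlapped between libraries, though Orct at 21.3 to 22.0 and wdp at 19.4 to 20.8 lay close. Ovary levels per kilobase were 28.3 ± 1.36 for wdp, 6.14 ± 0.406 for egr, 2.89 ± 0.623 for Orct and 2.30 ± 0.533 for Nepl4 (SD, n = 3). Orct at 2.38 to 3.59 and Nepl4 at 1.94 to 2.91 overlapped in ovary, so their order there does not exceed their spread.

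Between the wild-type tissues, the fitted level of egr was 2.09 ± 0.07 higher (log2, SE) in brain and that of Orct 3.56 ± 0.12 higher. The summed Orct pair was 2.04 higher in brain. The Nepl4 difference was -0.12 ± 0.29. In that fit 89.5% of all genes lay past an adjusted p of 0.05 in one direction or the other, and nothing is read from the place of the 4 among them. For wdp the direction depended on scaling. Its CPM, scaled within each tissue, was lower in brain than in ovary, at a log2 ratio of -0.49. The fit of both tissues with joint TMM scaling gave 0.15 ± 0.07 (0.14 without the ovary libraries that stood apart). Size factors by relative log expression gave 0.32. Joint TMM scaling added 0.636 to 0.656 to each of the 4 relative to CPM scaled within each tissue. Relative log expression moved the median gene by a further 0.174. Of the 4 genes only egr and Orct were therefore higher in brain under all of these scalings.

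For none of the 4 genes did a decrease after auxin pass the edgeR test in S2 cells. The same test called 0 of all 7152 genes lower at 24 h and 0 at 48 h. Of the 3 genes with enough counts to test, 0 were called at 24 h and 0 at 48 h, beside 0.0979% and 0.112% of all 7152 genes called in either direction. At an unadjusted p under 0.05, 0 of the 3 passed in edgeR, where 63 genes were lower and 80 higher at 24 h and 61 and 91 at 48 h, and DESeq2 called 0 of the 3 after adjustment. Same-numbered S2 libraries deviated together, although the labels do not say what a number stands for, and a fit with the number as a block called 0.881% of genes lower and 1.05% higher at 24 h, and 1.13% and 1.54% at 48 h (1.93% and 2.67% in all), but again 0 of the 3; at an unadjusted p under 0.05 it gave wdp alone, at both times.

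Orct was close to absent in S2 cells. Its counts were 6 and 2 in untreated libraries, 1 and 5 after 24 h, and 3 and 5 after 48 h, or 0.113 to 0.774 CPM, so a change was not detectable at this depth. Orct2 counts, in contrast, gave 167 and 208 CPM untreated, 253 and 293 at 24 h, and 241 and 284 at 48 h. Every treated library was above both untreated ones, an order seen in 14.0% of genes at 24 h and 11.9% at 48 h. The Orct2 log2 change was 0.54 ± 0.19 at 24 h and 0.49 ± 0.19 at 48 h; it did not pass without the block (adjusted p = 1.00 at both times, edgeR), and passed with it (adjusted p = 8.86e-05 and 0.000706). The block call was lost at 24 h without untreated library 1 or 2 (adjusted p = 0.199 and 0.0688), and at 48 h without untreated library 1 or 2 (0.363 and 0.120) or 48 h library 1 or 2 (0.128 and 0.0572). The brain and ovary values of Orct2 were negative, as given above.

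In untreated S2 cells wdp reached 90.6 and 111 CPM, after 24 h 107 and 137, and after 48 h 116 and 131. Within each library number both treated values were above the untreated one, but 107 lay under the higher untreated value. The log2 change was 0.27 ± 0.19 at 24 h and 0.30 ± 0.19 at 48 h (adjusted p = 1.00 for both, edgeR), and with the block 0.27 ± 0.12 (adjusted p = 0.283) and 0.30 ± 0.11 (adjusted p = 0.176). In brain and ovary every wdp value against wild type was negative.

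For egr, S2 levels differed more between library numbers than between treatments. They were 44.2 and 137 CPM untreated, 54.9 and 87.7 after 24 h, and 45.7 and 104 after 48 h, with the second library higher each time. After auxin the first library lay above its untreated partner at both times and the second lay under it. The log2 change was -0.35 ± 0.63 and -0.28 ± 0.63 (adjusted p = 1.00 for both, edgeR), and with the block -0.20 ± 0.14 (adjusted p = 0.698) and -0.21 ± 0.14 (adjusted p = 0.650). Without the block, its sign turned when untreated library 2 was left out, to 0.67 at 24 h and 0.74 at 48 h, and at 48 h also without 48 h library 1 (0.20).

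Nepl4 showed the reverse order of libraries in S2 cells. It reached 33.4 and 6.54 CPM untreated, 36.5 and 8.66 after 24 h, and 32.6 and 11.1 after 48 h, so the first library was higher throughout. The log2 change was 0.18 ± 1.01 and 0.13 ± 1.01 (adjusted p = 1.00 for both, edgeR), and with the block 0.21 ± 0.20 (adjusted p = 0.803) and 0.24 ± 0.20 (adjusted p = 0.761). Without the block the standard error of Nepl4 was of the order of its brain and ovary differences, so its response is poorly bounded in that fit. Between 24 h and 48 h of auxin, edgeR called 0 of the 3 genes and 0 of all genes (0 and 17 at an unadjusted p under 0.05), as did DESeq2; the log2 differences were 0.07 ± 0.63 for egr, -0.05 ± 1.00 for Nepl4 and 0.02 ± 0.19 for wdp.

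**Figure D3:**
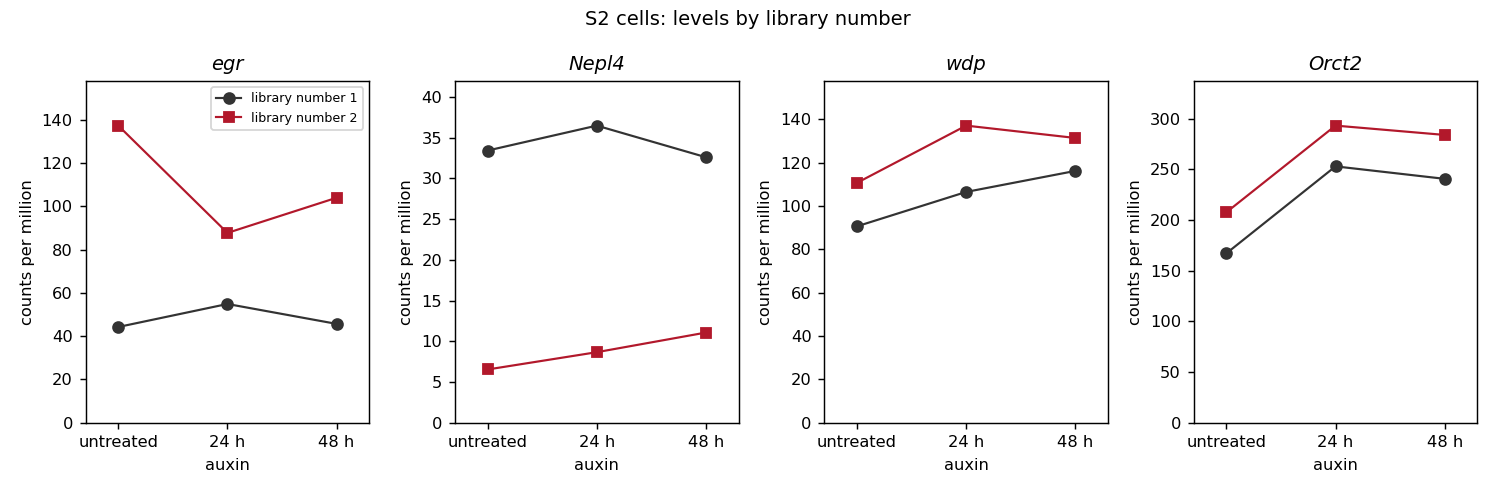
CPM of egr, Nepl4, wdp and Orct2 in S2 cells, untreated and after 24 h or 48 h of auxin, with libraries of the same number joined by a line. For egr and Nepl4 the lines lie far apart, with library 2 higher for egr and library 1 higher for Nepl4, while wdp and Orct2 are higher after auxin in both numbers.

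**Figure D4:**
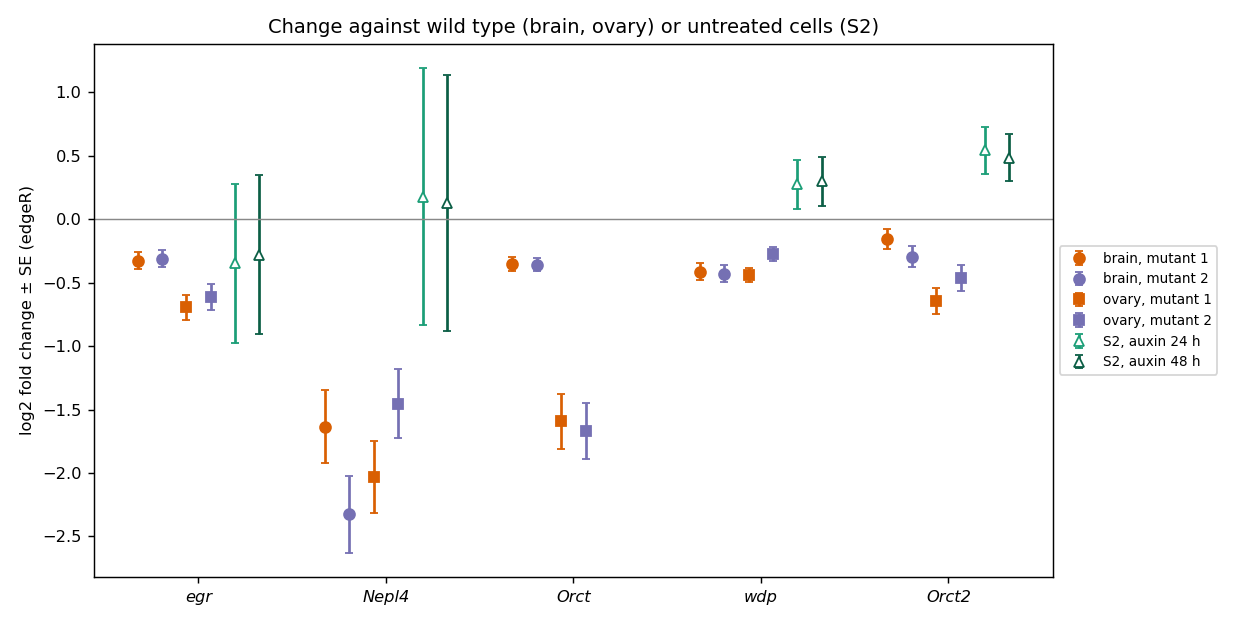
Log2 fold change ± SE (edgeR) against wild type in brain (circles) and ovary (squares), and against untreated cells in S2 (open triangles), for the 4 genes and Orct2. The tissue values of the 4 genes run from -0.28 to -2.33. The S2 values run from -0.35 to 0.30 for egr, Nepl4 and wdp, and Orct could not be tested in S2 cells. Orct2 reaches 0.54 in S2 cells and runs from -0.16 to -0.65 in the tissues.

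Of the 22 other genes of the Eiger and Jun kinase list tested in brain, from receptors to targets, edgeR called 0 in either direction in mutant 1 (1.9% of all genes were higher, 2.66% either way) or mutant 2 (2.23% and 2.96%). At an unadjusted p under 0.05, 1 was higher in mutant 1 and 0 in mutant 2, and DESeq2 called 0. The list's median log2 change was 0.0139 and 0.0138, beside -0.00017 and -0.0008 over all genes tested in brain. In ovary, 3 of 21 were higher and 0 lower in mutant 1 (12.2% and 11.2% of all genes), and 2 higher and 0 lower in mutant 2 (8.77% and 7.35%), with 2 lower at an unadjusted p under 0.05 in each and 0 lower in DESeq2. Without the libraries that stood apart, 1 was higher in mutant 1 and 0 in mutant 2. Its ovary medians were 0.124 and 0.0453, beside 0.00815 and 0.00347 over all ovary genes. Mmp1, a matrix metalloproteinase and a reporter of the pathway, was higher in both ovary mutants, at 4.89 ± 0.723 CPM in wild type, 8.02 ± 1.52 in mutant 1 and 9.44 ± 3.05 in mutant 2 (SD, n = 3). Its log2 change was 0.72 ± 0.23 (adjusted p = 0.0431) and 0.95 ± 0.23 (adjusted p = 0.0192) by edgeR; without the libraries that stood apart these were 0.88 (adjusted p = 0.103) and 1.13 (adjusted p = 0.0884). In S2 cells Mmp1 passed only in the fit with the block, with 0.59 ± 0.14 at 24 h (adjusted p = 0.00240) and 0.91 ± 0.13 at 48 h (adjusted p = 2.90e-08); the 24 h value missed the threshold when any untreated library or 24 h library 2 was left out of that fit (adjusted p up to 0.357).

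Other M13 peptidases were mixed. In brain, edgeR called 0 of 25 besides Nepl4 in either mutant, beside 2.66% of all genes in mutant 1 and 2.96% in mutant 2. At an unadjusted p under 0.05 in edgeR, 3 were lower and 3 higher in mutant 1, and 2 and 2 in mutant 2. DESeq2 called 1 higher in each and 1 lower in mutant 2. The unadjusted and DESeq2 counts of this list, here and in S2 cells, have no share of all genes beside them. Nothing is read from them. The list's brain medians were -0.0323 and -0.0962. In ovary, 3 were higher and 2 lower of 15 in mutant 1 (12.2% and 11.2% of all genes), and 2 higher and 1 lower in mutant 2 (8.77% and 7.35%), with medians of 0.0408 and 0.0264; without the libraries that stood apart, 3 were higher and 1 lower, and 1 higher and 0 lower. Nep4 was at 0.294 ± 0.0866 CPM in wild-type ovary, 2.60 ± 0.808 in mutant 1 and 4.00 ± 0.770 in mutant 2 (SD, n = 3), log2 changes of 3.09 ± 0.36 (adjusted p = 0.000101) and 3.71 ± 0.36 (adjusted p = 1.55e-05). Nep2 was higher by 0.30 ± 0.07 (adjusted p = 0.00829) and 0.32 ± 0.07 (adjusted p = 0.00875; 0.0567 without the libraries that stood apart), and Nep1 was lower at -0.86 ± 0.19 (adjusted p = 0.00963) and -0.80 ± 0.19 (adjusted p = 0.0183; 0.0860 without the libraries that stood apart). In S2 cells the edgeR block fit gave 2 of 5 as lower at 48 h, beside 1.13% of all genes. They were Nepl19 at -0.45 ± 0.11 (adjusted p = 0.00643) and Nepl20 at -0.69 ± 0.20 (adjusted p = 0.0271). Without the block, 0 of 5 passed in edgeR or DESeq2, with 0 at 24 h and 1 at 48 h under an unadjusted p of 0.05. The Nepl19 block call was lost without untreated library 1 or 2 or 48 h library 1 (adjusted p up to 0.667), and that of Nepl20 without untreated library 2 or 48 h library 1 or 2 (up to 0.905).

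Among 14 transporters of the SLC22 type other than Orct, CG8925 was the only gene called in brain, and it was higher. Of all genes tested in brain, 2.66% were called either way in mutant 1 and 2.96% in mutant 2, with 1.9% and 2.23% higher. CG8925 was at 0.759 ± 0.140 CPM in wild type, 3.24 ± 0.414 in mutant 1 and 3.13 ± 0.102 in mutant 2 (SD, n = 2). Its log2 change was 2.09 ± 0.20 (adjusted p = 0.000478) and 2.04 ± 0.20 (adjusted p = 0.000536). In ovary, where 11.2% of all genes were lower and 12.2% higher in mutant 1 and 7.35% and 8.77% in mutant 2, 3 of 10 were lower in each mutant, with 2 higher in mutant 1 and 1 in mutant 2 (2 lower and 1 higher in each without the libraries that stood apart); the medians were -0.0358 and -0.0139 in brain and -0.378 and -0.39 in ovary. Lower in both were Orct2, CG6126 at -0.50 ± 0.09 and -0.40 ± 0.09 (adjusted p = 0.00270 and 0.0117), and CG6231 at -0.26 ± 0.08 and -0.38 ± 0.08 (adjusted p = 0.0310 and 0.00677; the first was 0.0558 without the libraries that stood apart). CG14856 was higher in both, at 3.39 ± 0.63 and 3.81 ± 0.61 (adjusted p = 0.00355 and 0.00138), from 0.0722 ± 0.0739 CPM in wild type to 0.755 ± 0.218 and 1.01 ± 0.237 (SD, n = 3), so the fold rests on very few wild-type reads.

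The JAK-STAT list, which holds the pathway that wdp is known to restrain, gave 1 lower of 16 in each brain mutant: Tep1, a thioester-containing protein, at -1.29 ± 0.12 (adjusted p = 0.000479) and -1.36 ± 0.13 (adjusted p = 0.000334). In ovary, 1 of 15 was higher and 1 lower in mutant 1, and 2 were higher and 0 lower in mutant 2. The lower call was lost without the libraries that stood apart. Of all genes tested, 0.759% were lower in brain mutant 1 and 0.729% in brain mutant 2. In ovary, 12.2% of all genes were higher and 11.2% lower in mutant 1, and 8.77% and 7.35% in mutant 2. The list's medians were 0.0291 and 0.0864 in brain and 0.058 and 0.0372 in ovary. Tep2 rose in both ovary mutants, to 49.9 ± 6.12 and 46.7 ± 2.15 CPM (SD, n = 3), log2 changes of 1.95 ± 0.10 (adjusted p = 3.34e-08) and 1.85 ± 0.10 (adjusted p = 5.68e-08). In S2 cells Tep2 was lower in the block fit, at -0.40 ± 0.11 (adjusted p = 0.0220) and -0.37 ± 0.11 (adjusted p = 0.0391), and did not pass without the block (adjusted p = 1.00 at both times, edgeR). The block call was also lost at 24 h without any 1 library but 24 h library 1 (adjusted p up to 0.952), and at 48 h without any untreated or 48 h library (up to 0.857). Of 6 other proteoglycan core proteins, 1 was lower in brain mutant 1 and 0 in mutant 2 by edgeR (1 lower at an unadjusted p under 0.05 and 1 by DESeq2). Of 5 tested in ovary, 1 was lower and 1 higher in mutant 1, with 0 called in mutant 2 by edgeR or DESeq2 and 0 at an unadjusted p under 0.05; the medians were -0.0415 and -0.0552 in brain and -0.0358 and 0.119 in ovary.

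Among markers of other cell types, hemocyte markers were lower in brain: 11 of 16 in mutant 1 and 10 of 16 in mutant 2, beside 0.759% and 0.729% of all genes, with medians of -0.55 and -0.63. Their summed level was 5030 to 5670 CPM in wild-type brain, 3810 to 3990 in mutant 1 and 3620 to 3850 in mutant 2. LanA and LanB2, which that list holds, were at -0.79 ± 0.06 and -0.95 ± 0.06, and at -0.78 ± 0.06 and -0.90 ± 0.06, in the brain mutants. Of fat body markers, 3 of 11 were lower in mutant 1 and 2 of 11 in mutant 2 (medians -0.582 and -0.492), and their sum was 20600 to 26200 CPM in wild-type brain against 15900 to 19100 in the mutants. Fbp1 and Lsp1gamma, which encode a larval serum protein receptor and a storage protein, were at -2.43 ± 0.22 and -2.02 ± 0.22, and at -2.70 ± 0.29 and -2.07 ± 0.27. Their levels were low, at 2.76 ± 0.232 and 2.1 ± 0.207 CPM in wild-type brain (SD, n = 2), a very small part of the sum. Yp1 and Yp2 held much of it, at 6310 ± 1290 and 4660 ± 939 CPM in wild-type brain, and were not called in both brain mutants. Of the 10 neuron markers, 0 were called in either brain mutant by edgeR or DESeq2 and 0 had an unadjusted p under 0.05; of glia markers, 1 of 11 was lower in mutant 1 and 0 in mutant 2.

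Summed hemocyte markers of the ovary ran from 1400 to 1450 CPM with intact CG11247, from 941 to 1080 CPM with the first allele and from 895 to 1340 CPM with the second, with He at 0. For this and the other ovary lists, 11.2% of all genes were lower and 12.2% higher in mutant 1, and 7.35% and 8.77% in mutant 2. Hemocyte medians were -0.0551 and -0.0499, and 4 of 14 were lower and 2 higher in mutant 1, against 1 lower and 4 higher in mutant 2 (5 lower and 0 higher, and 4 lower and 5 higher, without the libraries that stood apart). LanB2 was at -0.62 ± 0.11 and -0.42 ± 0.11, while PPO2, a prophenoloxidase of crystal cells, was at 0.95 ± 0.25 (adjusted p = 0.0206; 0.0969 without those libraries) and 1.48 ± 0.25. Of 8 fat body markers, 3 were lower in each mutant, with 1 higher in mutant 1 that was lost without those libraries (medians -0.738 and -0.591), among them the yolk protein genes Yp1 at -0.69 ± 0.10 and -0.66 ± 0.10 and Yp2 at -0.59 ± 0.10 and -0.57 ± 0.10; follicle cells also make these. Follicle cell markers summed to 9740 to 11100 CPM in wild-type ovary and 5890 to 8120 CPM in the mutants, with 3 of 9 lower and 1 higher in mutant 1 and 2 lower and 1 higher in mutant 2 (medians -0.343 and -0.242). Among them the chorion gene Cp16 was at -1.10 ± 0.17 and -1.58 ± 0.17, and Fas3 was higher at 0.49 ± 0.07 and 0.60 ± 0.07. Germline markers summed to 2360 to 2490 CPM in the mutants, and 2 of 7 and 3 of 7 were lower, bam at -0.27 ± 0.06 and -0.30 ± 0.06 and aub at -0.27 ± 0.06 and -0.20 ± 0.06; without the libraries that stood apart 2 and 0 were lower. Of 9 glia markers 2 were lower and 1 higher in each ovary mutant (1 lower in mutant 1 without those libraries), with Eaat1 at -1.35 ± 0.21 and -1.42 ± 0.21 and Gli at 0.42 ± 0.10 and 0.46 ± 0.10. Of 8 muscle markers, 0 were called in ovary mutant 1 by edgeR (2 higher at an unadjusted p under 0.05, 1 by DESeq2) and 4 were higher in mutant 2, against 2 and 6 higher without those libraries. The part of these cell types in the levels of the 4 genes was not tested. In S2 cells summed hemocyte markers were 11100 to 14900 CPM untreated and 9490 to 13300 after auxin. Without the block, 0 of 12 were called by edgeR or DESeq2 and 0 had an unadjusted p under 0.05. Their medians in that edgeR fit were -0.184 at 24 h and -0.204 at 48 h, with 11 of 12 negative each time. With the block, edgeR called 1 lower at 24 h and 1 at 48 h, beside 0.881% and 1.13% of all genes. For 12 of the 24 pathway and marker genes named in the tissues, the change in brain differed from that in ovary in an edgeR interaction contrast, beside 6.29% of all genes; they were named for a call in 1 tissue, so nothing is read from the count.

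Across the 15 tissue libraries, after the mean of each tissue was subtracted, the 4 genes resembled each other, with Pearson r of log2(CPM + 1) from 0.755 for Orct and wdp to 0.925 for Nepl4 and wdp. These points share genotypes and libraries, and the genes were chosen for falling in the same ones, so r is only a description. Of 7198 genes compared, the 3 most like Nepl4 were LanB2 (r = 0.941), LanA (r = 0.933) and wdp. The 3 most like wdp were CG31869 (r = 0.946), Yp2 (r = 0.927) and Nepl4. The 3 most like egr were Neurl4 (r = 0.973), shtd (r = 0.949) and CG4829 (r = 0.941), and the 3 most like Orct were CG5112 (r = 0.964), fand and nmd (r = 0.957 each). In brain CG5112, fand and nmd lay between -0.12 and -0.03 against wild type (log2), and in ovary between -0.43 and -0.38.

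The nearest 5 tested genes on each side of each of the 4 were counted. In brain 0 of the 10 neighbours of any of them were called in both mutants, beside 0.516% of all brain genes lower in both. In ovary, CG1371 next to egr, WDR79 on one side of Nepl4, beta-PheRS and Orct2 near Orct, and Liprin-gamma near wdp were lower in both. That is 1, 1, 2 and 1 of 10, beside the 6.35% of ovary genes lower in both. WDR79 lay 240107 bp from Nepl4, the farthest of the neighbours counted for Nepl4 in ovary. Another neighbour of wdp, pgc, was higher in both, where 12.2% of ovary genes were higher in mutant 1 and 8.77% in mutant 2.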

How the data were processed

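The values are RNA-seq counts: whole counts per transcript in S2 cells, deposited by the authors, from libraries of a 3′ tag kit per the labels' protocols, and, as deposited by the authors, estimated counts per gene in brain and ovary from rRNA-depleted directional libraries. CPM values were counts per 1 M counts of tested genes, with library totals scaled by TMM within S2 cells, brain or ovary. For correlations between genes, both tissues were scaled jointly. Trim Galore 0.6.2, Salmon 1.2.1 (tissues) and build dm3 are named in the submitters' processing notes; no source used here says whether counting used strand. S2 transcripts were mapped to genes with an Ensembl annotation (25653 of 26009 matched), and each gene took its most counted transcript, since isoforms with a shared 3′ end repeat the same counts. Tissue counts were rounded to whole numbers. Each system was fitted across all genes with edgeR 4.0.16 in R 4.3.3 (TMM scaling, filterByExpr, quasi-likelihood test, Benjamini-Hochberg adjustment over 7152 S2, 9880 brain and 8312 ovary genes, called under 0.05), without a replicate block. Brain and ovary were fitted jointly (10029 genes) for contrasts between tissues. That between wild-type tissues was planned with a test, which is not reported because the choice used those libraries. The fits were also run on simulated data. The simulated libraries were independent, and the planted changes were larger than the brain changes of egr, Orct and wdp. It thus covers neither those changes nor S2 libraries that deviate together, and nothing is read from it. Same-numbered S2 libraries deviated together (r = 0.621 to 0.749 across genes, over 2 numbers), a pairing read from the data and not from the labels. The 4 genes and all gene lists were chosen with earlier results of these data known. Pathway genes were named when called in both mutants of a tissue or in S2 cells, up to 4 a list by adjusted p, and up to 2 a marker list; 7 of 8 germline markers matched. Like genes had a mean of at least 1 CPM in both tissues. Transcript lengths and neighbours come from the Ensembl annotation of a later build than dm3, so no coordinates are given. Alternatives: RLE size factors, no count filter, DESeq2 1.42.0, the replicate block, 2 groups per fit, summed isoforms, each library left out, and, chosen after seeing the data, Orct plus Orct2, ovary without the libraries that stood apart, and S2 block fits with summed isoforms or a library left out.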

Additional observations from a re-analysis of the deposited data

Results flagged for a closer look

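The mean change of both mutants in brain and that in ovary were set apart by an edgeR interaction contrast for 12 of 24 named pathway and marker genes (8 to 13 with 1 library left out). These genes were named for a call in 1 tissue, so the contrast is not independent of their choice and no p is given. Lower or less raised in brain were Nep4 (log2 difference -3.31), CG14856 (-3.78), Tep1 (-1.22), Tep2 (-1.46), PPO2 (-1.70), Lsp1gamma (-3.30) and Fas3 (-0.481). Higher or less lowered in brain were Nep1 (0.829), CG6231 (0.339) and Eaat1 (1.34). CG8925 (2.10) and Fbp1 (-3.56) had too few ovary counts to be tested there and entered the joint fit through brain alone, so their contrast does not compare measured responses of both tissues.

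For wdp, every auxin-treated S2 library was above the untreated mean, by at least 5.86 CPM, while every mutant brain and ovary library was under its wild-type mean. For Orct2 the smallest S2 excess was 53.2 CPM, again with every mutant library of both tissues under wild type. These differences between S2 cells and tissues were not tested, and the systems differ in kit, cell type and the way Saft was lost.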

How the results depend on the processing

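The 5 genes lower in all 4 tissue comparisons were 4 with only the 2 groups compared in a fit (egr missed the threshold), and became 8 with DESeq2 and 10 with the replicate block, all 4 described genes included in both, and 1 to 6 with 1 library left out: 2 without mutant 1 brain library 1 (Nepl4 among them) and 2 without wild-type brain library 2 (with none of the 4), and 1 without mutant 1 brain library 2 or wild-type brain library 1 (none of the 4). Genes called lower numbered 75 in brain mutant 1, 72 in brain mutant 2, 935 in ovary mutant 1 and 611 in ovary mutant 2. With 1 library left out these ran from 24 to 122, 36 to 142, 449 to 1041 and 196 to 853. Fitting only the 2 groups compared gave 126 for brain mutant 1, and leaving out the ovary libraries that stood apart gave 216 for ovary mutant 2.

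With 1 library left out, egr in the brain mutants ranged from -0.37 to -0.28 and from -0.36 to -0.26, Orct from -0.38 to -0.33 and from -0.38 to -0.34, wdp from -0.46 to -0.37 and from -0.50 to -0.37, and Nepl4 from -2.15 to -1.26 and from -2.54 to -2.13, none of them crossing 0. The contrast between the wild-type tissues is described without a test. With 1 library left out, egr there ranged from 2.03 to 2.13, Orct from 3.42 to 3.71 and wdp from 0.11 to 0.19 (log2). The Nepl4 difference there turned to 0.0518 with RLE size factors, to 0.0527 with DESeq2 and to 0.0582 without the libraries that stood apart. It ranged from -0.23 to 0.0562 with 1 library left out.

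In S2 cells, leaving out 1 library moved egr between -0.96 and 0.67 at 24 h and -0.99 and 0.74 at 48 h, Nepl4 between -1.21 and 1.79 and between -0.86 and 1.74, and Mmp1 at 24 h between -0.0636 and 1.23. With the replicate block and 1 library left out, egr turned to 0.177 at 24 h and 0.178 at 48 h without untreated library 2, and to 0.188 at 24 h without 24 h library 2; it was called lower at 24 h without 24 h library 1 (-0.55, adjusted p = 0.0173, edgeR), and wdp higher at 48 h without 24 h library 2 (0.30, adjusted p = 0.0467, edgeR), 1 gene called in each. The replicate block otherwise changed no call of the 4 genes; in the tissues, where same-numbered libraries did not deviate together in all pairs (r = -0.294 to 0.388), it gave 87, 88, 928 and 645 genes called lower. The block was not run for the contrast between wild-type tissues, whose libraries share no number. The causes were not tested.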
